A study of Homo sapiens with 2 samples.

Results

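Peaks of DDX18 that fell in LINE copies were collected from an iCLIP peak list of H9 human embryonic stem cells. DDX18 is an RNA helicase of the DEAD-box family that resides in the nucleolus, and iCLIP crosslinks a protein to the RNA it touches with UV light before the protein is pulled down and the attached RNA is sequenced. A peak was a member when its detailed annotation named a repeat of class LINE, and each position (chromosome, start, end and strand) counted once. This gave 385 of the 16095 distinct positions, or 2.39% (exact 95% binomial interval 2.16 to 2.64). They came from 400 entries, because 11 positions were listed under more than 1 gene.

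The iCLIP samples read out RNAs that DDX18 contacts in pluripotent cells. The 2 samples form 1 group with the genotype 3XFlag-DDX18 expression. Both are H9 cells under normal culture on irradiated mouse embryonic fibroblasts, exposed once to 160 mJ/cm2 of UV at 254 nm, and an antibody to FLAG was used to pull the tagged protein down. The promoter of the tagged protein is not given in the sources used here, and no untagged or input sample was analysed here. Both samples share 1 deposited list with 1 height per peak, so no value below has an error between samples, no difference below was tested, and the reads per sample are unknown. Height is a deposited whole number that is not scaled to sequencing depth or to the amount of each RNA. Intervals cover counting error only. Of the 10 embryonic stem cell markers, 8 had a peak (80%, 44.4 to 97.5), led by LIN28A with a highest peak of 36, and POU5F1 and SOX2 were the 2 without one. Of the 12 fibroblast markers, 7 had one (58.3%, 27.7 to 84.8), led by THY1 with 39, and the part of feeder RNA in the list was not tested. Of all protein-coding genes, 31.0% had a peak and 1.71% a LINE peak. None of these marker genes had a LINE peak, and lists this short would hold few at that share.

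LINEs, long interspersed nuclear elements, are retrotransposons that copy themselves through an RNA and a reverse transcriptase. L1 is the family that still moves in the human genome. L2, CR1 and RTE copies are old remnants that no longer move. Most copies are shortened at the 5' end and many lie in introns, where they are transcribed as part of the host gene's precursor RNA and removed with the intron. L1 subfamily names that start with L1M mark copies spread in early mammals, and those that start with L1P mark copies spread in primates.

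LINE positions lay mostly in introns, as did the intronic and intergenic positions of the list as a whole. Of the 385 positions, 372 lay in introns (96.6%, 94.3 to 98.2) and 13 in intergenic sequence. The whole list had 2965 intronic and 129 intergenic positions. LINE made up 12.5% (11.4 to 13.8) of the intronic and 10.1% (5.48 to 16.6) of the intergenic ones, with overlapping intervals. The annotation gave repeat names to 1197 positions, all of them intronic or intergenic, and to 0 of the other 13001. A peak in a LINE copy within an exon or UTR would thus carry no repeat name and not be a member. That no LINE position lay outside introns and intergenic sequence is therefore no result about LINE copies. LINE made up 12.4% (11.3 to 13.7) of the 3094 intronic and intergenic positions, and 32.2% (29.5 to 34.9) of the positions with a repeat name. LINE was the most frequent repeat class by position, with 385 positions against 342 for SINE, 157 for LTR and 116 for DNA transposon copies. The length of LINE sequence in introns was not used here, so these shares were not set against what introns contain.

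L1 copies held most of the LINE positions and L2 copies most of the rest. L1 had 278 positions (72.2%, 67.4 to 76.6), L2 had 90 (23.4%, 19.2 to 27.9), CR1 had 14 (3.64%) and RTE had 3 (0.779%). By summed height L1 held 76.5% of 3777 and L2 20.4%. The median height was 6 in each of the 4 families. The highest peak reached 1033 in L1, 226 in L2, 32 in CR1 and 6 in RTE. Each of these maxima is 1 peak, and they fall in the order of the numbers of positions. Heights of 10 or more were found at 4.68% of L1 positions (2.51 to 7.86) and 6.67% of L2 positions (2.49 to 13.9), with overlapping intervals.

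**Figure D1:**
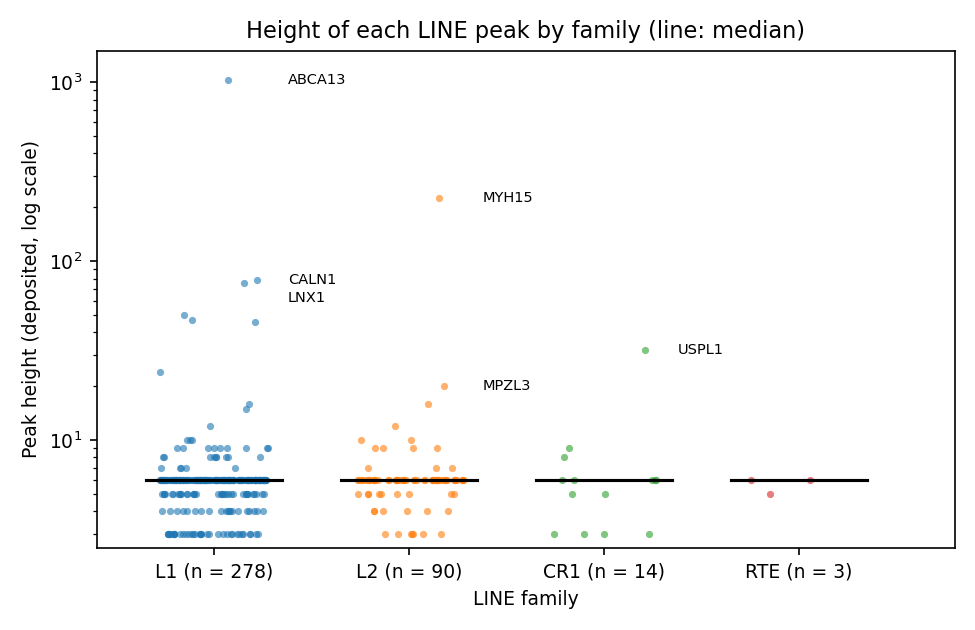
Height of each of the 385 LINE peaks on a log scale, by family, with points spread sideways at random and the median as a black line. Each family has its median at 6, and the ABCA13 peak (1033) and the MYH15 peak (226) stand above all others.

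The highest LINE peak stood in ABCA13, which encodes a large transporter of the ABC family. It lay at positions 48672390 to 48672394 of chromosome 7 on the plus strand (hg19, as for all positions below), in intron 59 of 61, in an L1M4 copy. Its height was 1033, which is 27.3% of the summed height of all LINE peaks, against an expected height of 0.08 in the deposited list, and its deposited p-value was 1e-100, the lower limit of the list. It was 5 nt wide, the nearest other peak on its strand was 524460 nt away, and no other peak was called in ABCA13. Without this gene the 10 highest LINE peaks held 22.4% of the LINE height, and with it 43.2%.

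The next peak lay in MYH15, a myosin heavy chain gene, at positions 108200362 to 108200376 of chromosome 3 on the minus strand. It reached 226 in an L2a copy of intron 12 of 41, and it too was the only peak called in its gene. CALN1, which encodes the calcium-binding protein calneuron 1, had a peak of 79 in an L1ME5 copy of intron 5 of 6, on chromosome 7 at 71316775 to 71316789. Its other 2 peaks were low, with a height of 6 in intron 3 and of 5 in the 3' UTR. A peak of 76 called under LNX1, a ubiquitin ligase gene, lay in an L1ME1 copy that the annotation placed between genes, on chromosome 4 at 54507839 to 54507853. Another LNX1 peak, of height 6 in an L1MB3 copy, stood 6177 nt from it. Neighbouring peaks, in the same gene or near it, were thus absent or far lower at these sites.

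The next peaks were of 50 in CNTLN, 47 in FRYL and 46 in FSHR. CNTLN encodes the centrosome protein centlein and had its peak in an L1MD2 copy of intron 16 of 25 on chromosome 9. FRYL, a homologue of the Drosophila furry gene, had its peak in intron 1 of 63 on chromosome 4. That copy, L1PA5, was the only primate L1 among the 10 highest. FSHR encodes the follicle-stimulating hormone receptor, and its peak lay in an L1M2c copy of intron 2 of 8 on chromosome 2. The list of 10 closed with USPL1, a SUMO protease gene (32, in the CR1 element L3), AHCYL2, which encodes a relative of S-adenosylhomocysteine hydrolase (24, in L1MC1), and MPZL3, a gene related to myelin protein zero (20, in L2c). These 3 peaks each stood in the first intron of their gene.

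The 10 highest peaks were narrow, at a median width of 15 nt (range 5 to 18), against 24 nt (range 1 to 41) in the other 375. This was not particular to them. The median width was 17 nt for LINE peaks of height 7 to 9, 13 nt over the whole list and 10 nt in coding exons. In 8 of the 10 the deposited p-value stood at the limit of 1e-100, which 22 of all 385 LINE positions (5.71%) and 15.5% of all positions in the list reached. The deposited p-value was 7.1e-09 for the MYH15 peak and 9.16e-09 for the LNX1 peak. The 10 were picked by height, so low p-values among them may not be a separate trait. In 7 of the 10 host genes (70%, 34.8 to 93.3) no peak outside LINE copies was called, against 43.0% of all protein-coding LINE hosts, with the interval holding that share. Of the 10 copies, 7 were L1, 2 were L2 and 1 was CR1. How reads that match several LINE copies were placed is not given in the sources used here, and the part of such reads in these heights was not tested.

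The other 10 LINE peaks of height 10 or more are named here to complete the 20, after their values were seen. CACNA1E, a voltage-gated calcium channel gene, had a peak of 16 in an L1MB7 copy of intron 3 of 47, as high as the MPDZ peak in an L2 copy. C3P1, a complement C3 pseudogene, had 15 in L1MC4. PCSK6, a proprotein convertase gene, had 12 in L2b, and SSC5D had 12 in L1M5, in its last intron, 13 of 13. Peaks of 10 stood in PTPRJ, a receptor tyrosine phosphatase gene (L2c, intron 1 of 24), NAP1L1, a histone chaperone gene (HAL1, intron 2 of 15), SH2B3, a signalling adaptor gene (L1ME4a, intron 2 of 7), PXDNL, a peroxidasin relative (L1PB1, intron 4 of 22), and FTX.

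**Figure D2:**
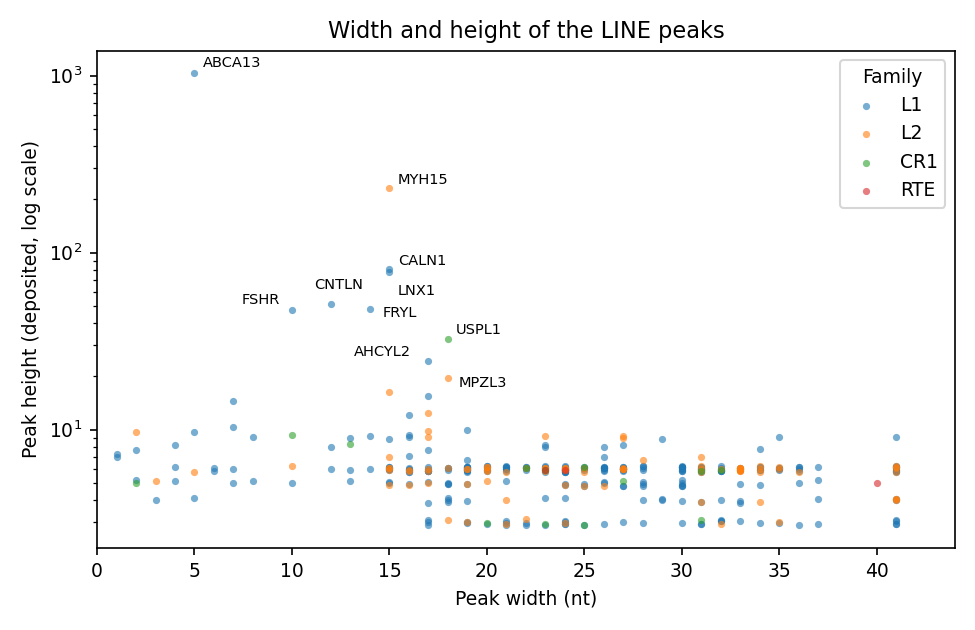
Width in nt against height on a log scale for the 385 LINE peaks, coloured by family, with heights shifted by up to 4% at random to part overlapping points. The 10 named peaks, of height 20 to 1033, lie between 5 and 18 nt wide, and no peak of height 3 is narrower than 17 nt.

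Below these peaks the heights were low and nearly uniform. Of the 385 positions, 214 (55.6%, 50.5 to 60.6) had a height of exactly 6, 119 (30.9%) were lower and 52 (13.5%) were higher. A height of 3, the lowest in the list, was found at 46 positions (11.9%), 4 at 26 and 5 at 47. Heights of 10 or more were found at 20 LINE positions (5.19%, 3.20 to 7.91), against 36.6% of all positions. Peaks of height 6 had a median width of 24.5 nt (quartiles 20 and 31) and deposited p-values from 1e-100 to 0.0455. Peaks of 1 height thus carried very different p-values. The expected height in the list was 0.02 at the median LINE position and 0.11 at the median coding exon position.

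Among subfamilies the 3 named forms of L2 came first. This order depends on how finely the names are split. The 90 L2 positions fell under few names (L2, L2a, L2b and L2c), and the 278 L1 positions under many. The list held 89 LINE subfamily names, 27 of them at 1 position each, and 8 names at 10 or more positions covered 146 positions. L2c had 31 positions (highest peak 20), L2b had 27 (highest 12) and L2a had 26 (highest 226). L1ME1 followed with 17 (highest 76), L1M5 with 15 (highest 12), and L1MB7, L1MC4 and L1ME4a with 10 each (highest 16, 15 and 10). The leading CR1 name was L3 with 8 positions, and the leading RTE name was L4 with 2. The median height of each of these subfamilies was 6, except for L4 at 5.5.

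Old L1 copies outnumbered primate copies. Names that start with L1M covered 227 of the 278 L1 positions (81.7%, 76.6 to 86.0) and names that start with L1P covered 40 (14.4%, 10.5 to 19.1). The remaining 11 positions belonged to HAL1, a shortened relative of L1. Within the L1M names, the L1ME group had 79 positions, L1MC 40, L1MB 35, L1MA 28 and L1MD 10, and other L1M names had 35. Within the L1P names, L1PA had 26 positions in 12 subfamilies, L1PB had 9 and L1PREC had 4. The median height was 6 for both L1M and L1P names. The height of 3 was found at 22.5% of the L1P positions (10.8 to 38.5) and at 11.0% of the L1M positions (7.26 to 15.8), and these intervals overlap.

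**Figure D3:**
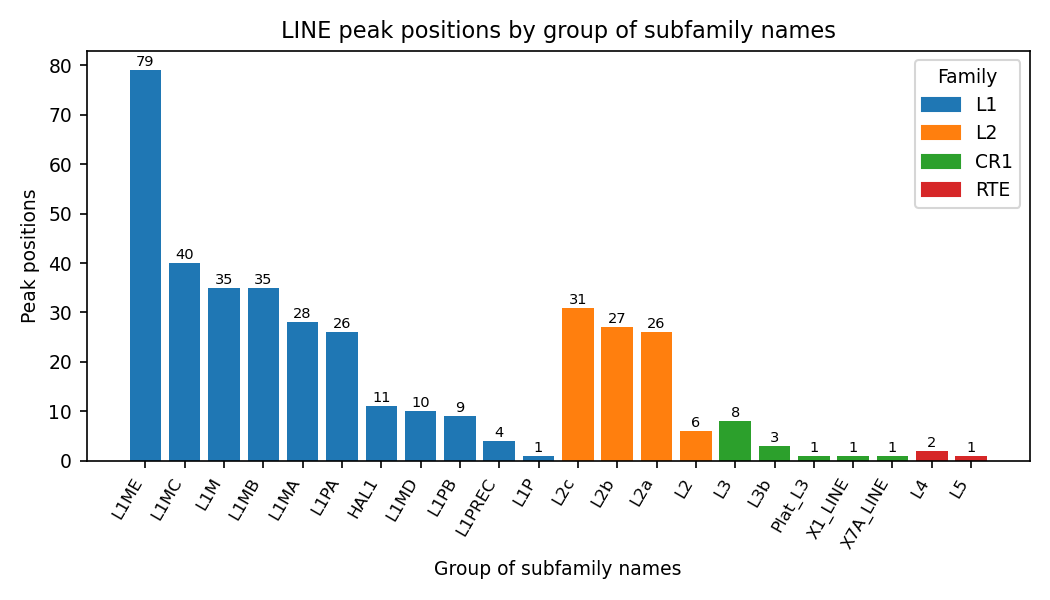
Number of LINE peak positions for each group of subfamily names, coloured by family. The L1ME group is the tallest bar at 79, and the primate groups L1PA, L1PB, L1PREC and L1P hold 26, 9, 4 and 1 positions.

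The youngest L1 names were rare in the list. No position was named L1HS, the subfamily that is still active in humans. L1PA2 had 2 positions, in intron 4 of 8 of NUP62CL on the X chromosome (height 8) and in TRIM5, an antiviral restriction factor gene (height 6). L1PA3 had 1 position, in MGAT4C (height 6), and L1PA6 had 1, in UGT1A6 (height 3). L1PA5 had only the FRYL peak. L1PA7 had 6 positions with heights from 3 to 6. Young copies resemble each other closely, and how reads that match several of them were placed is not given. Whether any of their reads were dropped was not tested.

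L2 and CR1 peaks below the first ones were ordinary in height. After MYH15 (226) and MPZL3 (20), the third L2 peak was in MPDZ, a scaffold protein gene with many PDZ domains, at 16 in intron 21 of 44. After USPL1 (32), the next CR1 peaks were in SCMH1, a Polycomb group gene (9, intron 2 of 15), and in ELOVL6, a fatty acid elongase gene (8, intron 2 of 4), all in L3 copies. Of the RTE peaks, that in QTRT2, which encodes a subunit of the enzyme that puts queuine into tRNA, had a height of 6 and that in PLSCR4, a phospholipid scramblase gene, a height of 5, both in L4 copies. L2 peaks lay in a first intron in 34.1% of the intronic ones (24.3 to 45.0) and L1 peaks in 22.8% (17.9 to 28.4), with overlapping intervals.

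LINE peaks were spread over many long genes. They were called in 367 genes, of which 364 matched the RefSeq gene table, with 342 protein-coding genes and 18 long non-coding RNA genes. The protein-coding hosts were 1.71% of all protein-coding genes. A gene had 1 LINE peak in 339 cases, 2 in 24 cases, 3 in 3 cases and 4 in 1 case. The protein-coding hosts had a median length of 160114 nt (quartiles 70668 and 301571) in that table, against 50904.5 nt for all protein-coding genes with a peak and 24092.5 nt for all protein-coding genes. Hosts of intronic peaks with no repeat name had a median of 126814 nt, hosts of SINE peaks 112721 nt, hosts of LTR peaks 149730 nt and hosts of DNA transposon peaks 145390 nt. Longer genes offer more intron to be listed, and this was not adjusted for.

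In IMMP2L and ZNF519, each with 3 LINE peaks, the peaks were low and lay in copies of different subfamilies. IMMP2L, a mitochondrial inner membrane peptidase gene, had heights of 6, 5 and 5, in L2c, L1PB4 and L1MA9. ZNF519 on chromosome 18 had its 3 in the last intron, of heights 8, 6 and 6, in L1MB2, L1M1 and L1MA9, and no other peak. Both genes were picked out after their values were seen.

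The hosts included zinc finger genes and X-linked non-coding RNA genes, groups that were also picked after the peaks were seen. Genes with a ZNF symbol made up 14 of the 367 hosts (3.81%, 2.10 to 6.32), against 1.99% (1.35 to 2.83) of the hosts of intronic peaks with no repeat name, 1.67% of SINE hosts, 6.79% of LTR hosts, 0.840% (0.0213 to 4.59) of DNA transposon hosts and 1.97% of all genes with a peak. The intervals of LINE hosts and of hosts of unnamed intronic peaks overlap. The LINE peaks of these ZNF genes had heights of 5, 6 or 8. ZNF695 and ZNF670-ZNF695 were listed with the same peak, as were ZNF595 and ZNF718. The interval for LINE hosts counts each of these genes separately. JPX and FTX, non-coding RNA genes of the X-inactivation centre, and FIRRE, an X-linked non-coding RNA gene that acts in nuclear organization, together had 6 LINE peaks with heights from 6 to 10. The 3 JPX peaks, in L1MCa, L1MD3 and L1M4b copies of introns 2 and 3 of 4, each had a height of 6 and a deposited p-value of 0.0427. FTX had a peak of 10 in L2c and a peak of 8 in L1MB7, both in intron 5 of 6, and FIRRE had a peak of 9 in L1MB7 in intron 6 of 12. In all, 18 long non-coding RNA genes, 4.90% of the LINE hosts (2.93 to 7.64), had LINE peaks at 23 positions with heights from 3 to 10, among them UGDH-AS1 with 9 in L2b and CASC15 with 2 peaks of 6, in L1MEf and L2a. The share of such genes was 4.18% (3.23 to 5.32) among hosts of unnamed intronic peaks, 3.89% for SINE, 9.88% for LTR and 2.52% for DNA transposon hosts, so that of LINE hosts was near that of other intronic hosts. JPX, FTX and FIRRE also had peaks with no repeat name, of height 6 in JPX, 8 to 12 in FTX and 7 to 9 in FIRRE.

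The X chromosome held a larger share of LINE peaks than of intronic peaks with no repeat name. It had 22 LINE positions in 19 genes, or 5.71% (3.62 to 8.52), against 2.52% (1.85 to 3.35) of intronic positions with no repeat name. The share was 2.05% (0.827 to 4.17) for SINE and 7.01% (3.55 to 12.2) for LTR positions. Over the whole list it was 3.52%. Without JPX, FTX and FIRRE, 16 of 379 LINE positions lay on the X chromosome (4.22%, 2.43 to 6.77), against 2.20% (1.58 to 2.99) of unnamed intronic positions, and these intervals overlap. The human X chromosome is known to be rich in L1 sequence, and the amount of LINE sequence per chromosome was not used here. By count, chromosomes 4 and 7 had the most LINE positions, with 30 each, and chromosome 21 had 1.

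The 13 intergenic LINE peaks were low except for the LNX1 peak of 76. The other 12 had heights of at most 8, the highest in an L1ME1 copy called under GLI2, a transcription factor gene of the Hedgehog pathway. At positions 70107909 and 70108485 of chromosome 5, 2 peaks of height 3, in L1P4 and L1PB4 copies, were each listed under 4 genes, SMN1, SMN2, SERF1A and SERF1B. These genes lie in a duplicated stretch of the genome, where reads of the copies may not be told apart.

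LINE peaks lay far from other peaks, as did other intronic peaks. The nearest other position on the same strand was a median of 60634 nt away (quartiles 16812 and 229931, lowest 554), with 0 of 385 within 50 nt and 4 within 1000 nt. Coding exon positions had a median of 2926.5 nt, and intronic positions with no repeat name had 55412 nt, SINE 54482 nt, DNA transposon 64840.5 nt and LTR positions 103681 nt. The distance to the nearest start site was 36149 nt at the median, and the closest peak was 1003 nt away. Of the 342 protein-coding hosts, 147 (43.0%, 37.7 to 48.4) had no peak outside LINE copies. The share of hosts with no peak outside the group, counted the same way, was 50.7% (48.1 to 53.4) for intronic peaks with no repeat name, 40.2% for SINE, 43.7% for LTR and 37.3% for DNA transposon copies. The LINE share lay within the range of the other repeat classes and below that of unnamed intronic peaks, with intervals that overlap. A peak in a coding exon or UTR was also found in 125 LINE hosts (36.5%, 31.4 to 41.9). The share with a coding exon or UTR peak was 43.2% (37.9 to 48.8) for SINE hosts, 37.3% for LTR hosts, 34.5% for DNA transposon hosts and 36.7% (34.2 to 39.3) for hosts of intronic peaks with no repeat name.

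In height and width, LINE peaks resembled other intronic peaks more than exonic ones. The median height was 6 for LINE, SINE, LTR and DNA transposon copies and for introns with no repeat name, and 9 for coding exons. The median width was 24 nt for LINE, 25 nt for SINE, 22 nt for LTR, DNA transposon and unnamed intronic peaks, and 10 nt for coding exons. A height of exactly 6 was found at 55.6% of LINE, 57.0% of SINE and 53.5% of unnamed intronic positions, and at 17.5% of coding exon positions. The lowest height, 3, was found at 11.9% of LINE positions (8.88 to 15.6) and 6.64% of unnamed intronic positions (5.54 to 7.88), and these intervals do not overlap. It was found at 6.73% of SINE (4.31 to 9.92), 10.8% of LTR and 7.76% of DNA transposon positions, with intervals that overlap that of LINE. Height of 10 or more was found at 5.19% of LINE positions (3.20 to 7.91) and 8.12% of unnamed intronic positions (6.91 to 9.47), with overlapping intervals. The share was 6.43% for SINE, 3.18% for LTR and 8.62% for DNA transposon positions.

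**Figure D4:**
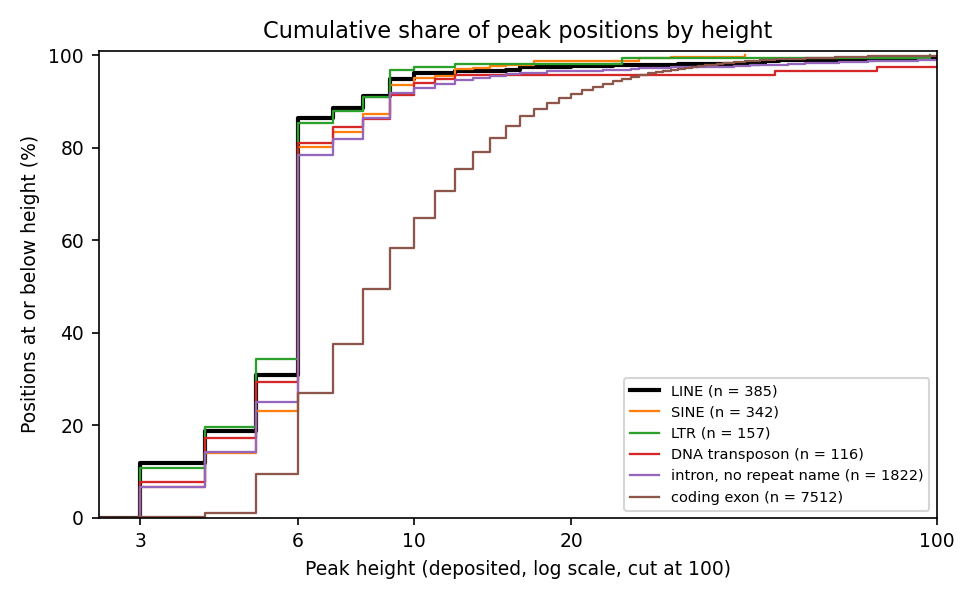
Cumulative percent of positions at or below each height, on a log height axis cut at 100, for LINE peaks (black) and the other groups. The LINE curve passes 80% at a height of 6 together with SINE, LTR and DNA transposon peaks, and the coding exon curve lies far below it there.

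First introns held a smaller share of LINE peaks than of other intronic peaks, with intervals that overlap. Of the 372 intronic LINE peaks, 95 lay in intron 1 (25.5%, 21.2 to 30.3) and 39 in the last intron (10.5%, 7.56 to 14.1). The share in intron 1 was 30.9% (28.8 to 33.1) for unnamed intronic peaks, 30.0% for SINE, 29.3% for LTR and 34.5% for DNA transposon peaks. LINE peaks lay on the plus strand at 206 positions (53.5%, 48.4 to 58.6). The annotation does not give the strand of the LINE copy, so sense and antisense copies were not told apart.

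**Figure D5:**
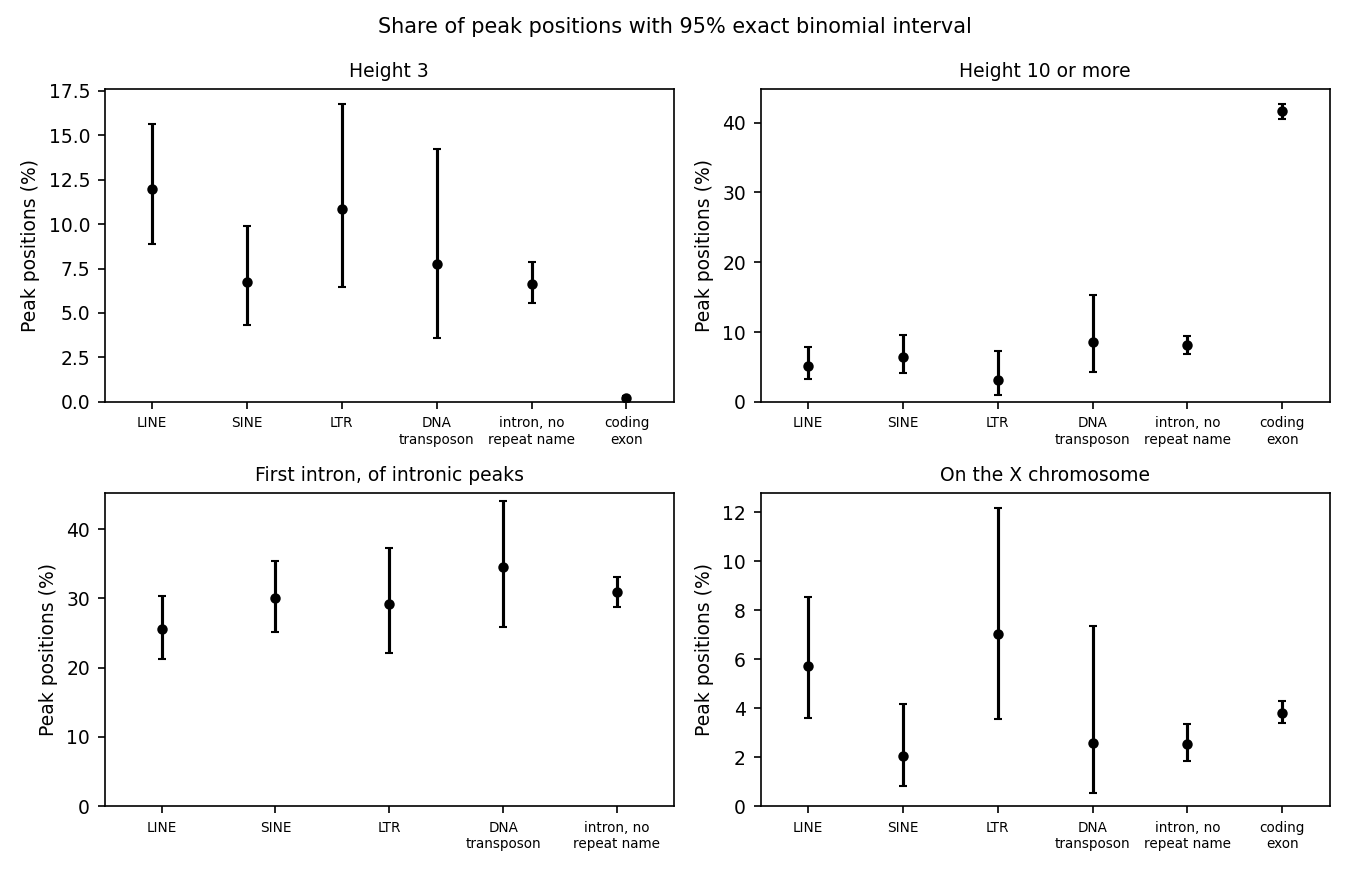
Percent of positions with a height of 3, with a height of 10 or more, in a first intron (of intronic positions) and on the X chromosome, by group, with exact 95% binomial intervals as bars. LINE positions sit at 11.9%, 5.19%, 25.5% and 5.71% in the 4 panels, and coding exons at 41.6% for heights of 10 or more.

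Genes whose products bind, restrict or derive from L1 had almost all their peaks outside LINE copies. The same held for the whole list, in which 2.39% of positions were LINE. Of 54 such genes, 27 had a peak (50%, 36.1 to 63.9), against 31.0% of all protein-coding genes, and the list was chosen with results of these data known. Whether a gene is expressed is not in the peak list. The highest peaks were called under MATR3, a nuclear matrix RNA-binding protein gene (480, nearest to the start of SNORA74A), NCL, the nucleolin gene (469, nearest to SNORD20), ERCC1, a DNA repair gene (342, in an intergenic tRNA copy nearest to the start of FOSB, its only peak), and PABPC4, a poly(A)-binding protein gene (91, nearest to SNORA55). These 4 peaks were thus nearest to small nucleolar RNA genes or lay in a tRNA copy. L1TD1, a stem cell RNA-binding protein gene that derives from an L1 open reading frame, had 3 peaks in its 5' UTR and coding exons with a highest of 28. UHRF1, which brings DNA methyltransferase to replicated DNA, was the only gene of the 54 with a LINE peak (1.85%), a share near the 1.71% of all protein-coding genes. That peak, of height 6, lay in an L1MB3 copy of intron 10 of 16 on chromosome 19, and the other 2 UHRF1 peaks had heights of 5.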

How the data were processed

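The 2 iCLIP samples share 1 list of significant peaks annotated on hg19 with annotatePeaks.pl of HOMER, per the file headers. Per the submitters' processing notes, FastQC 0.10.1 and BWA were used. Not given in the sources used here were the peak caller, the rule for significance, the handling of duplicates and of reads with several matches, and any pooling of replicates. The deposited height is a signal in whole numbers, equal to the height in each peak's name, with no scaling by the authors. Expected heights, p-values, positions and repeat names are also the authors'.

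From the 17163 entries, 1 entry was kept per position, that with the lowest p-value. Genes are those in which a peak was called, named by Entrez identifier through the RefSeq gene table of GRCh38.p14, used for names, biotypes and lengths only. Of 6695 genes, 6677 matched. Shares carry exact 95% Clopper-Pearson intervals (scipy 1.17.1, pandas 2.3.3), and parsing and intervals were tested on simulated data. Named are the 10 highest LINE peaks, the 10 genes with the largest summed LINE height, genes with 4 or more LINE positions, subfamilies with 10 or more positions and the leading one of each family, the 3 highest peaks of each family other than L1, and, for the L1 gene list, the 4 genes with the highest peaks and any with a LINE peak. L1TD1, TRIM5, the youngest L1 names and the genes marked in the text were chosen after their values were seen. A gene that the rule names is not reported here. The members and gene lists were chosen with earlier results of these data known. No test was made, since the list holds 1 group and no value per replicate.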

Additional observations from a re-analysis of the deposited data

How the results depend on the processing

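Of 38 recomputed values, 26 stayed within the counting interval of the reported value or within 1.5 times the reported count. Counting every entry and leaving out positions under more than 1 gene were the settings in which each of the 7 results stayed. The number of genes is always taken over all entries, so counting every entry could not move it. Leaving out ABCA13 could only lower that number from 367 to 366. Both of these are among the 26. Joining LINE peaks within 50 nt is not among the 38, since 0 of 385 lay that close to another position and the setting could change nothing. Leaving out JPX, FTX and FIRRE, chosen after seeing the data, gave an X share of LINE peaks of 4.22% in place of 5.71%. Among peaks with a deposited p-value at or below the median of all positions (4.81e-05), the LINE share of positions was 1.69%, LINE peaks were called in 132 genes, and the 10 highest held 65.4% of the LINE height. With heights of 10 or more, the LINE share was 0.339%, the L1 share of LINE peaks 65%, the median height of LINE peaks 18 and of L1 peaks 24, the number of genes 20 and the share of the 10 highest 93.1%. At heights of 10 or more, the median heights of LINE and L1 peaks could not stay at 6, because all lower peaks were left out. The LINE share there restates that few LINE positions reach that height (5.19%, against 36.6% of all positions). The other values follow in part from the smaller number of peaks kept, 136 and 20. With intronic and intergenic positions as denominator the LINE share was 12.4%, and with repeat-named positions 32.2%. Without ABCA13 the 10 highest peaks held 22.4% of the LINE height. Leaving out a replicate could not be run, because the list has no value per replicate. No paired analysis was possible because there is 1 group.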
